A study of Mus musculus with 12 samples.

Results

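Egr1, Egr2, Egr3 and Egr4, the 4 genes of the early growth response family, and Nab1 and Nab2, the genes of their 2 co-repressors, were followed in mouse prefrontal cortex after cocaine or saline in adolescence. They were taken by gene name, 6 of the 28842 genes in the deposited table. RNA of the prefrontal cortex of male, wild-type C57BL/6J mice, an inbred laboratory strain, was sequenced in 12 libraries. The saline group (6 libraries) received saline and the cocaine group (6 libraries) 15 mg/kg cocaine from postnatal day 28 to 42. Mice of both groups had a pre-test on day 75, received 1 mg/kg cocaine before place preference training on days 76 and 77, and took the test on day 78. Tissue was taken 30 to 60 min after that test. Both groups had therefore met cocaine as adults, and neither is a group without the drug. Whether every library came from its own mouse is not stated, so each p-value reflects library-to-library spread, which may in part be technical.

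EGR proteins are zinc finger transcription factors that bind GC-rich DNA, with GCGTGGGCG as the classical site. Their genes are immediate-early genes: synaptic activity and growth factors switch them on within minutes through the MAP kinase ERK, serum response factor with its ternary complex partners at CArG boxes, and CREB at cyclic AMP elements. NAB proteins bind to EGR1, EGR2 and EGR3 and repress transcription with them, in part through the NuRD remodelling complex, and EGR proteins can induce Nab2, which closes a feedback loop. In forebrain neurons Egr1 (also called Zif268) and Egr3 are known for their roles in plasticity and memory, and Egr2 (Krox20) is best known for hindbrain patterning and for myelination by Schwann cells.

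Recovered reads per library ran from 16.7 to 19.9 M. Some label fields name a mesenchymal stem cell line, C3H 10T1/2, which does not match the tissue named in the protocol, and a time tag of day 0 or day 5, which alternates between replicates in both groups (3 libraries of each per group) and has no place in the treatment schedule. As the tag is balanced between the groups, taking it as a covariate cannot move a difference between them. The log2 difference of Egr2, described further on, was thus 0.32 with and without it. All 8 markers of excitatory cortical neurons were present, with summed levels of 683 to 921 FPKM (reads divided by gene length and by the library's total) in saline and 702 to 882 in cocaine libraries. Of 7 mesenchymal markers 3 had a mean of at least 1 FPKM: Thy1, which neurons also make, at 218 to 335 FPKM, Eng, which endothelium also makes, at 5.61 to 8.16, and Col1a2 at 0.897 to 1.52. The other 4 were lower, with Col1a1 between 0.574 and 1.08 FPKM, Prrx1 between 0.321 and 0.616, Col3a1 between 0.0758 and 0.259 and Twist1 between 0.0363 and 0.488. The library saline 5 held 536 FPKM of Ttr, a choroid plexus gene, and the summed choroid plexus markers were 0.551 to 539 FPKM in saline and 0.271 to 1.64 in cocaine libraries.

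The stretches upstream of Egr2 and Egr4 are shown because they hold the elements through which activity is known to reach immediate-early genes. They are from RefSeq (GRCm38.p6), 180 bases ending at the base before the start of transcription, 5′ to 3′ on the gene's strand. RefSeq lists 5 starts for Egr2, and the one at position 67537869 is shown, which lies inside the annotated span of the gene and was chosen because its window holds both motifs. Of the other Egr2 windows, that at 67535499 held neither motif, that at 67537566 a CArG box and no TGACG, and those at 67537870 and 67537930 overlap the one shown. Capitals mark matches to the CArG box, searched by name, and to TGACG, the core of the cyclic AMP element, on both strands (CGTCA is the reverse strand).
Egr2, chr10:67537689-67537868, plus strand: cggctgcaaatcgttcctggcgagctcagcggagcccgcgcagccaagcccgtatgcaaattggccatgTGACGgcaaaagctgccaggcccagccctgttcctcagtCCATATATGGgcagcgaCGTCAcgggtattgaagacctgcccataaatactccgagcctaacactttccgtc
Egr4, chr6:85513590-85513769, minus strand: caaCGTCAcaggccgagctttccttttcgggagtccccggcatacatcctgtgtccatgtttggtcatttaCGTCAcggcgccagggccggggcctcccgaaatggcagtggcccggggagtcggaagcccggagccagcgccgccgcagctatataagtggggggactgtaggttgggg

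The Egr2 stretch held a CArG box that begins 72 bases before the start and TGACG cores that begin 111 and 55 bases before it. The Egr4 stretch held TGACG cores at 177 and 109 bases and no full match to the CArG box, and near matches were not searched. In the 250 bases before a start, 1.47 percent of 32851 RefSeq promoter windows held a CArG box and 17.8 percent held TGACG. Per window, a CArG box is thus uncommon and TGACG is not. The Egr2 window was chosen among several starts for its matches, so these shares do not measure how unusual it is. The full cyclic AMP element TGACGTCA (1.55 percent of windows), of which TGACG is a part, and TATAAA (12.4 percent) were in none of the windows of Egr2, Egr4, Nab1 and Nab2. These 4 genes had an entry in the promoter table.

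The EGR site itself, GCGTGGGCG, was found before the Nab1 start at chromosome 1 position 52500448 (minus strand) in both orientations. Both matches lie inside the annotated Nab1 gene, which reaches 52500679, and in stretches that GENCODE M21 annotates as exon, so they are upstream of this start but not of the whole gene. It was present in 0.536 percent of all windows. The 30 bases around each match are shown with the motif in capitals.
Nab1, chr1:52500571-52500600, minus strand, motif from 141 bases before the start: cgccccgcggcCGCCCACGCcgggatctgc
Nab1, chr1:52500539-52500568, minus strand, motif from 109 bases before the start: cactcggccgcGCGTGGGCGggagccggag
The Nab2 window held none of these motifs. A match is a description of the sequence, and binding was not measured.

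Per gene length, Egr1 was the most abundant member and Egr2 the least. Egr1, whose protein is the most widely studied EGR factor in cortex, had a mean level of 104 FPKM over the 12 libraries and stood above 97.1 percent of the 13016 genes tested. Egr4, whose product lacks the NAB-binding region of the other EGR factors, stood at 50.4 FPKM, and Egr3 at 48.4. The co-repressors were lower, with Nab2 at 15.2 and Nab1 at 8.12 FPKM. Egr2 stood at 4.09 FPKM, above 35.1 percent of the genes tested.

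**Figure D1:**
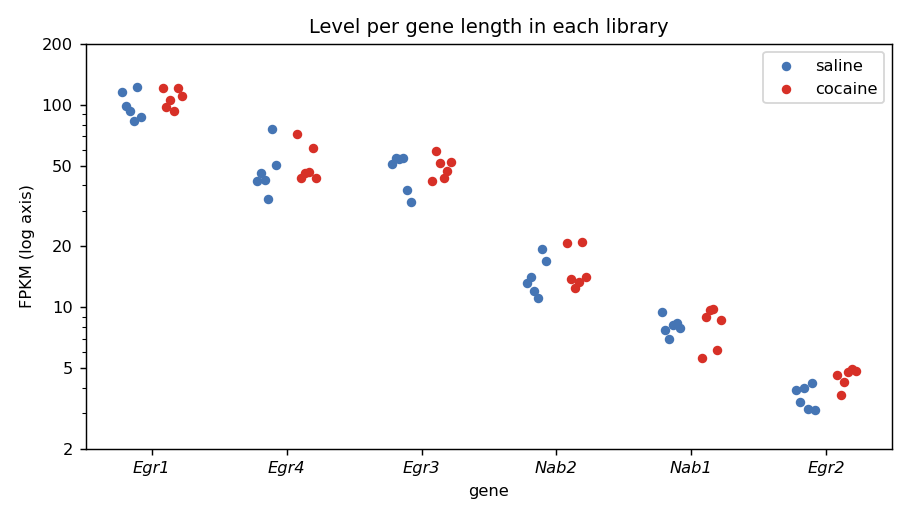
Level per gene length (FPKM, log axis) of the 6 genes in each library; each point is 1 library, blue for saline and red for cocaine, 6 per group. Egr1 lies highest in all 12 libraries and Egr2 lowest, while Egr4 and Egr3 share the same range.

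The order of levels held within each library for every neighbouring pair except 1. Egr1 was 1.62 to 2.77 times Egr4, Egr3 was 1.94 to 4.94 times Nab2, Nab2 was 1.29 to 3.73 times Nab1, and Nab1 was 1.20 to 2.59 times Egr2, each in 12 of 12 libraries. Egr4 and Egr3 had no fixed order: their ratio ran from 0.627 to 1.99, with Egr4 above Egr3 in 5 of 12 libraries. Of the summed EGR level, Egr1 made up 49.9 ± 2.63 percent in the saline group and 50.4 ± 1.56 percent in the cocaine group (SD, n = 6). Egr2 made up 1.83 ± 0.133 and 2.13 ± 0.263 percent. The 4 EGR genes summed to 8.92 ± 1.06 times the summed NAB level in saline and to 8.91 ± 0.457 times in cocaine libraries.

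Of the 6 genes, Egr2 had the largest difference between the groups. Its normalised read counts (reads divided by the library's size factor, the deposited values) ran from 179 through a median of 218 to 250.4 in saline and from 228 through 279 to 294 in cocaine libraries. The groups overlapped, but 5 of 6 cocaine libraries lay above the highest saline library and all 6 above the saline median. The mean was 218 ± 29.1 in the saline group and 271 ± 25.5 in the cocaine group (SD, n = 6), or 1.24-fold higher (log2 difference 0.32 ± 0.11 SE, 95 percent interval 0.09 to 0.54). The exact permutation test of the group labels gave p = 0.0108 (two-sided). In 0 of the 6 genes were the groups free of overlap, beside 0.0615 percent of all genes tested with every cocaine library above every saline library and 0.0768 percent in either direction.

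In the test across all 13016 genes Egr2 ranked 22 by p (limma, unadjusted p = 0.0102), and its adjusted p was 1.00, so the difference did not pass the threshold of 0.05. Of the 6 genes, 1 had an unadjusted p under 0.05, and its direction was higher; across all genes 0.676 percent did so in that direction and 1.14 percent in either. After adjustment limma passed 0 of 13016 genes (0.0 percent), with 149 at an unadjusted p under 0.05, edgeR passed 0 of 16057 (0.0 percent), with 253, and DESeq2 passed 3 of 28827 (0.0104 percent), with 428; none of these 3 is an EGR or NAB gene. With the red blood cell marker score as a covariate limma still passed 0, but 847 genes had an unadjusted p under 0.05, and with library weights 322. The authors' deposited table gives Egr2 a log2 fold change of 0.31, p = 0.00681 and an adjusted p of 1.00. In bulk tissue, more cells that make a transcript and more of it per cell cannot be told apart.

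**Figure D2:**
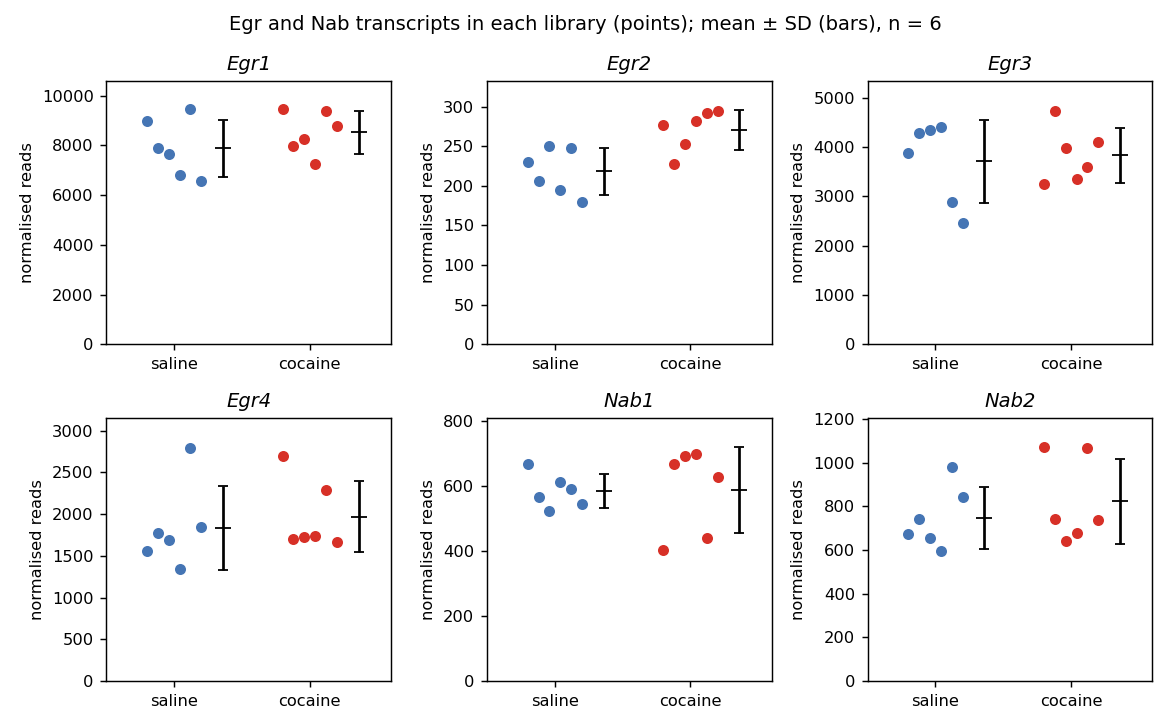
Normalised read count of each gene in each library (points, saline blue, cocaine red), with the mean and SD of each group (bars, n = 6). In Egr2, 5 of 6 cocaine points lie above the highest saline point, and in the other 5 genes the groups overlap more. In Nab1 the cocaine points spread both below and above the saline points.

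Egr1 did not pass the test, with an interval from a small decrease to a modest increase. Its normalised reads ran from 6586 through 7762 to 9450 in saline and from 7243 through 8520 to 9484 in cocaine libraries. The highest saline and the highest cocaine library were nearly level, and 5 of 6 cocaine libraries lay above the saline median. The means were 7890 ± 1149 and 8525 ± 868 (SD, n = 6), a log2 difference of 0.12 ± 0.10 SE (95 percent interval -0.11 to 0.34, exact permutation p = 0.281, limma adjusted p = 1.00). The interval corresponds to 0.929-fold to 1.27-fold. The summed level of 4 red blood cell markers was 54.1 to 202 FPKM in saline and 95.1 to 185 in cocaine libraries; with its score as a covariate the log2 difference of Egr1 was 0.00 and that of Egr2 0.28. The part of blood RNA in these values was not tested further.

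Egr3, which is induced later and longer than Egr1 and is known as one of its targets, showed wide spread in saline. Its normalised reads ran from 2453 through 4077 to 4407 in saline and from 3251 through 3781 to 4740 in cocaine libraries. The libraries saline 5 and saline 6, at 2882 and 2453, lay below all the others. The log2 difference was 0.07 ± 0.15 SE (95 percent interval -0.25 to 0.40, exact permutation p = 0.680), and 0.21 with the red blood cell score as a covariate.

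Egr4 ran from 1346 through 1730 to 2796 normalised reads in saline and from 1665 through 1734 to 2696 in cocaine libraries. The libraries saline 5 (2796), cocaine 1 (2696) and cocaine 5 (2284) were high, and the other 9 lay between 1346 and 1840. The log2 difference was 0.12 ± 0.17 SE (95 percent interval -0.24 to 0.48, exact permutation p = 0.550). With the red blood cell score as a covariate the sign turned, to -0.13.

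Nab1 was alike in mean level but not in spread. Its normalised reads ran from 523 through 579 to 669 in saline and from 401 through 648 to 697 in cocaine libraries. The libraries cocaine 1 (401) and cocaine 5 (438) lay below every saline library, and cocaine 3 (693) and cocaine 4 (697) above every one. The coefficient of variation was 8.95 percent in saline and 22.6 percent in cocaine libraries, a difference that was not tested. The means were 584 ± 52.3 and 588 ± 133 (SD, n = 6). The log2 difference was -0.02 ± 0.14 SE (exact permutation p = 0.885), opposite in sign to the ratio of the means.

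Nab2, the inducible co-repressor, ran from 596 through 708 to 980 normalised reads in saline and from 640 through 739 to 1073 in cocaine libraries. The libraries cocaine 1 (1073) and cocaine 5 (1066) were the highest, followed by saline 5 (980) and saline 6 (842). The log2 difference was 0.13 ± 0.15 SE (95 percent interval -0.21 to 0.46, exact permutation p = 0.483), and it was -0.05 with the red blood cell score as a covariate. Of the 2941 exon bases of Nab2 (chromosome 10, 127660918 to 127668568, minus strand, GRCm38), 1050 are shared with Gm16229, 151 with Nemp1 and 40 with Stat6, all on the opposite strand. The strand setting of the counting is not given in the sources used here, so reads in those bases cannot be assigned to 1 strand. In saline and cocaine libraries Stat6 had 183 ± 10.3 and 166 ± 24.4 normalised reads and Nemp1 84.3 ± 15.3 and 77.7 ± 6.35 (SD, n = 6). Gm16229, which shares the most bases, was not analysed here. The part of reads from the opposite strand in the Nab2 values was not tested.

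The other 5 genes share exon bases with no other gene of the annotation. Egr1 lies on chromosome 18 from 34859823 to 34864984, Egr2 on chromosome 10 from 67535475 to 67542188 and Egr3 on chromosome 14 from 70077203 to 70082614, all on the plus strand. Egr4 lies on chromosome 6 from 85511121 to 85513589 and Nab1 on chromosome 1 from 52457294 to 52500679, both on the minus strand.

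Ratios within a library remove what moves all members alike. Of 5 ratios computed, Egr2 over Egr1 differed most. Its log2 value on normalised reads was -5.17 ± 0.13 in the saline group and -4.97 ± 0.16 in the cocaine group (SD, n = 6), a difference of 0.20 ± 0.09 SE with all 6 cocaine libraries above the saline median (exact permutation p = 0.0390, adjusted over the 5 ratios 0.195). Egr3 over Egr1 differed by -0.05 ± 0.20, Egr4 over Egr1 by 0.00 ± 0.15, Nab2 over Egr1 by 0.01 ± 0.14 and Nab2 over Nab1 by 0.15 ± 0.31 (log2, SE; lowest exact permutation p = 0.619). None of the 5 passed the threshold after adjustment.

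Across the 12 libraries 2 of 15 pairs of members were correlated past the adjusted threshold. Egr4 and Nab2 moved together (log2 values, Pearson r = 0.91, permutation p = 0.00016, adjusted 0.0024; Spearman rho = 0.85, permutation p = 0.00097, adjusted 0.0145). Within groups r was 0.94 in saline (exact permutation p = 0.00278) and 0.92 in cocaine libraries (exact permutation p = 0.0542). The cocaine value rested on cocaine 1 and cocaine 5, at 2696 and 2284 normalised reads for Egr4 and 1073 and 1066 for Nab2. The other cocaine libraries lay between 1665 and 1737 for Egr4 and between 640 and 741 for Nab2. Over both groups r was 0.89 without cocaine 1 and saline 5, the libraries farthest from the Egr4 median, with cocaine 5 kept. With group means removed, 64 of 13014 other genes (0.492 percent) had a higher r with Egr4 than Nab2 had. Seen from Nab2, Egr4 ranked 253 among 11660 named genes, so many genes followed Nab2 more closely.

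Nab1 and Nab2 moved in opposite directions (r = -0.75, permutation p = 0.00627, adjusted 0.0470; rho = -0.62, permutation p = 0.0373, adjusted 0.185). This relation rested on 2 libraries: r was -0.18 in saline and -0.98 in cocaine libraries, and -0.31 without cocaine 1 and cocaine 5. Its adjusted p was also between 0.0502 and 0.181 on leaving out any 1 of saline 1, saline 2 or cocaine 1, 2, 3, 5 and 6. With group means removed, 372 of 13014 other genes (2.86 percent) had a lower r with Nab1 than Nab2 had. Seen from Nab2, Nab1 ranked 10201 from the top among 11660 named genes. Egr1 and Egr2 had r = 0.66 (permutation p = 0.0205, adjusted 0.0876; rho = 0.53, permutation p = 0.0789), and r = 0.26 without saline 4 and saline 6. The adjusted p was between 0.0876 and 0.0929 for this pair and 5 others, namely Egr1 with Egr4 and with Nab2, Egr3 with Egr4 and with Nab2, and Egr4 with Nab1. Egr1 and Egr3, both high in cortical neurons, had r = 0.00 and rho = -0.28 (permutation p = 0.996 and 0.378).

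These relations ran beside a difference between libraries in the balance of short and long genes. The contrast was the mean log2 deviation of the 3254 shortest genes tested (up to 2378 bases) minus that of the 3254 longest (from 6522 bases), a measure added after the data had been seen. It was highest in saline 5 (0.36), cocaine 1 (0.33), saline 6 (0.28) and cocaine 5 (0.25) and lowest in saline 4 (-0.36) and cocaine 2 (-0.31). It did not differ between groups beyond their spread (-0.02 ± 0.29 and 0.02 ± 0.24, SD, n = 6, exact permutation p = 0.784).

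Across the 12 libraries Egr3 followed the contrast downward (r = -0.84, permutation p = 0.00046, adjusted over 6 relations 0.00138; rho = -0.92, permutation p = 9e-05) and Egr4 upward (r = 0.82, permutation p = 0.00039, adjusted 0.00138; rho = 0.82, permutation p = 0.00178). Nab2 followed it upward too (r = 0.80, permutation p = 0.00219, adjusted 0.00438; rho = 0.67, permutation p = 0.0195). Without saline 5 and cocaine 1 the values were -0.80, 0.69 and 0.68. Within groups r was -0.91 in saline and -0.78 in cocaine libraries for Egr3, 0.79 and 0.87 for Egr4, and 0.92 and 0.73 for Nab2. Egr4, with 2148 bases, is itself among the short genes that define the contrast. Its rise along the contrast is therefore in part built in, and its p-value is no independent evidence. Egr3, with 4406 bases, and Nab2, with 2941, are in neither set. The share of all genes that follow the contrast as closely is not given here.

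Egr2 did not track the contrast at a detectable level (r = 0.19, permutation p = 0.548; rho = 0.18, permutation p = 0.574). For Egr1 r was 0.48 and rho 0.54 (permutation p = 0.115 and 0.0764), and for Nab1 r was -0.48 and rho -0.31 (permutation p = 0.118 and 0.319). With the contrast as a covariate the log2 difference between groups was 0.31 for Egr2, 0.10 for Egr1, 0.11 for Egr3, 0.08 for Egr4, 0.09 for Nab2 and 0.00 for Nab1, and 0 of 13016 genes passed by limma, with 481 at an unadjusted p under 0.05.

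**Figure D3:**
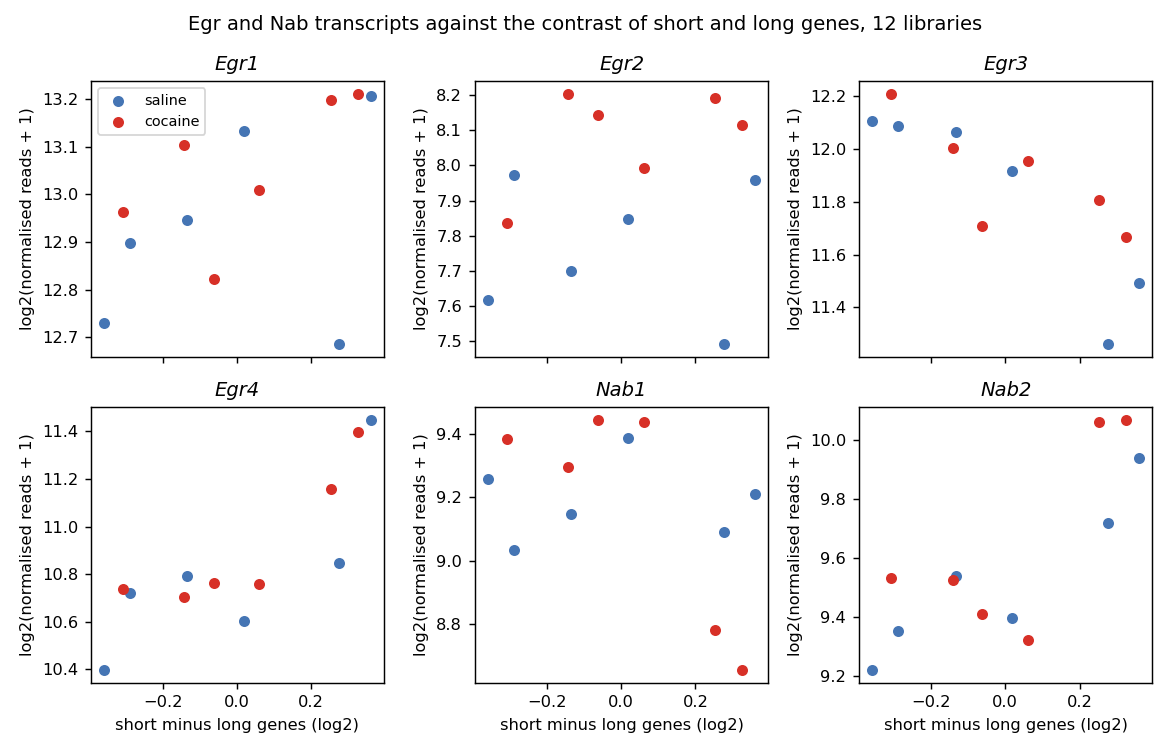
Log2(normalised reads + 1) of each gene against the short minus long gene contrast of the library (log2), 12 libraries, saline blue and cocaine red. Egr4 and Nab2 rise and Egr3 falls along the contrast in both groups, while in Egr2 5 of 6 cocaine points lie above every saline point and the sixth, cocaine 2, lies among them at the low end of the contrast.

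The genes whose levels followed Egr1 most closely over the 12 libraries, with the group means removed, were Tbc1d7 (Pearson r = 0.90), Arc (0.89), Fos (0.85), Nek6 (0.85) and Pxmp4 (0.84), out of 11660 named genes compared. Arc, which encodes a synaptic cytoskeletal protein, and Fos, a subunit of the AP-1 transcription factor, are immediate-early genes as Egr1 is. For Egr2 they were Phospho2 (0.91), Magohb (0.85), Cbx1 (0.85), Rflnb (0.83) and Ighm (0.79), none of which is known as an immediate-early gene. Egr2 itself ranked 192 among the genes most like Egr1, and seen from Egr2, Egr1 ranked 45 (r = 0.64). Egr2 rested on 184 to 317 reads per library.

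The closest genes of the other members were looked up after their values had been seen. They were Chrna5 for Egr3 (r = 0.96), Ddit3 for Egr4 (0.96), Itgb1 for Nab1 (0.95) and Cct7 for Nab2 (0.99). Junb, another immediate-early gene, ranked 5 for Nab2 (0.98).

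The pathway around the EGR genes was read from lists of known genes. Of 22 genes reported as EGR targets 16 were tested: 13 were higher and 3 lower in mean in the cocaine group, 0 passed the adjusted threshold, 1 had an unadjusted p under 0.05, and the median log2 difference was 0.04 (0.085 with the red blood cell score as a covariate, 0.0062 with library weights and 0.065 without saline 3). Over all 13016 genes tested 53.7 percent were higher and the median was 0.01. The target with an unadjusted p under 0.05 was Arc (0.97 ± 0.20 SE), which is also on the immediate-early list. Gabra4, a GABA-A receptor subunit, stood at 0.08 ± 0.09.

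Of 16 genes that act upstream of the EGR genes, the ERK pathway, its kinases and the SRF and CREB factors, 7 were higher and 9 lower, and none had an unadjusted p under 0.05. The median was -0.01, with Rps6ka1 and Rps6ka3, genes of kinases that ERK activates, at -0.13 ± 0.11 and 0.10 ± 0.10 and Creb1 at 0.09 ± 0.09 (log2, SE). These are transcript levels, and the activity of these proteins was not measured.

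Of 13 genes of the NuRD complex, the partner of NAB proteins, 5 were higher and 8 lower, none at an unadjusted p under 0.05, with a median of -0.04. Chd4, its main remodelling ATPase, stood at -0.09 ± 0.10, Rbbp7 at 0.14 ± 0.12 and Mbd2 at -0.06 ± 0.10. Of 8 genes that Egr2 is known to drive in Schwann cells 6 were tested, with 1 higher and 5 lower, none at an unadjusted p under 0.05, and a median of -0.13. That median turned to 0.037 without saline 1, 0.00067 without saline 5 and 0.036 with library weights, and was -0.33 without saline 4, -0.26 without saline 3, -0.27 without cocaine 4, -0.069 without cocaine 5, -0.014 without cocaine 1 and -0.45 with the red blood cell score. Among them Scd2, a fatty acid desaturase, stood at -0.09 ± 0.17 and Pmp22, a myelin protein, at -0.09 ± 0.20. Myelinating oligodendrocyte markers, some of them on this list, summed to 276 to 2062 FPKM in saline and 428 to 1696 in cocaine libraries, and their part in these values was not tested.

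The list of other immediate-early genes was larger in median difference than the EGR and NAB genes. Of its 22 genes 20 were tested: 18 were higher and 2 lower in mean (53.7 percent higher over all genes tested), 11 had an unadjusted p under 0.05 (1.14 percent over all genes), 0 passed the adjusted limma threshold, and the median log2 difference was 0.36, beside 0.12 over the 6 EGR and NAB genes. The smallest p-values belonged to Nr4a1, an orphan nuclear receptor (0.53 ± 0.10), Dusp1, the MAP kinase phosphatase of the study's title (0.66 ± 0.13), and Arc. Earlier results of these data on many genes of the list were known when it was drawn up. Its counts and median are therefore no independent evidence.

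**Figure D4:**
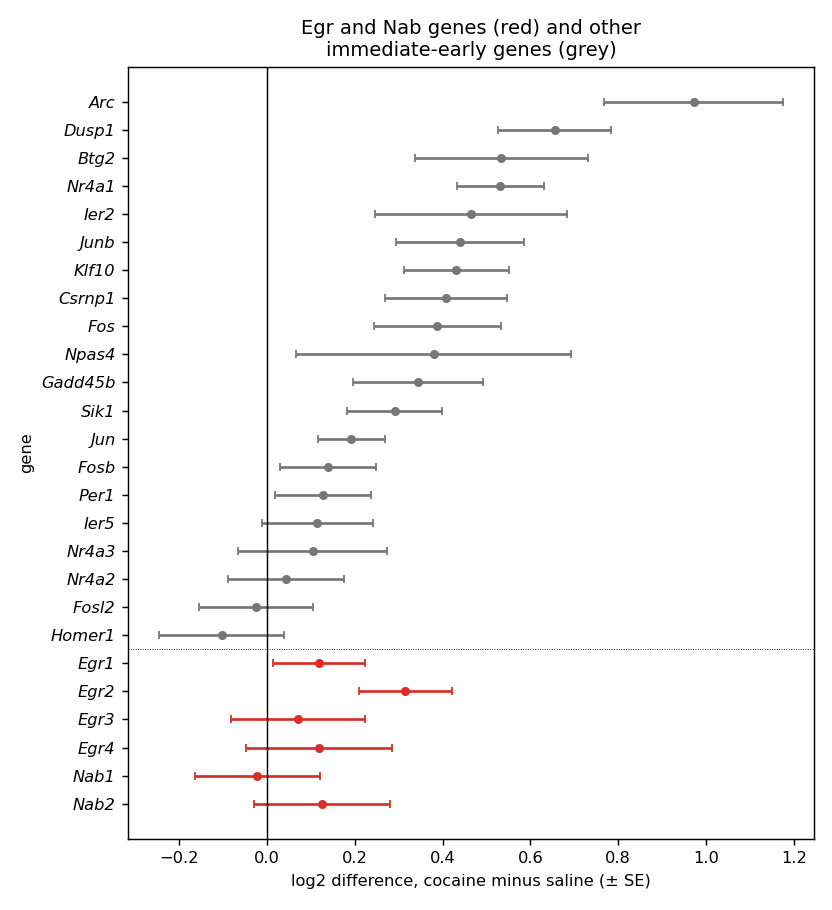
Log2 difference, cocaine minus saline, with its SE (bars) for the 6 EGR and NAB genes (red) and the other 20 immediate-early genes tested (grey), n = 6 libraries per group. Egr2, at 0.32, lies near the middle of the grey points, and the other 5 red points lie between -0.02 and 0.13.

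The ratio of each of these 20 genes to Egr1 was computed within each library, a comparison added after the data had been seen. In 15 of 20 the ratio was higher in mean in the cocaine group, 7 had an exact permutation p under 0.05, and 2 passed after adjustment over the 20. All 20 ratios share Egr1 and are not independent, and 18 of these genes were higher in mean by themselves. The counts therefore in part repeat the list result. The same counts over all genes tested are not given here. Arc relative to Egr1 rose by 0.85 ± 0.15 and Dusp1 relative to Egr1 by 0.54 ± 0.10 (log2, SE), each with all 6 cocaine libraries above all saline libraries (exact permutation p = 0.00216, the smallest this design can give, adjusted 0.0216). Nr4a1 and Fos relative to Egr1 differed by 0.41 ± 0.12 and 0.27 ± 0.09 (adjusted exact permutation p = 0.0541 for both). Homer1, whose gene makes both a long and an inducible short form, went the other way (-0.22 ± 0.20, exact permutation p = 0.303). Arc, Dusp1 and Nr4a1 were already known from these libraries as the genes with the smallest p-values, so their ratios are no independent evidence.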

How the data were processed

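RNA-seq of prefrontal cortex was analysed in 12 libraries, grouped by the treatment label. The authors deposited 1 table with a signal per gene and library. Its name says FPKM, but each value is a read count over the size factor of its library. All values (100 percent) came out as whole reads, to within 0.01 read, and 16.7 to 19.9 M reads per library were recovered from them, so a gene at 0 is limited to about 3 reads, counting error only. The authors' table also holds a log2 fold change and a p-value per gene, per the file headers. HISAT2 2.0.5 and the build hg38 are named in the submitters' processing notes. The gene IDs are mouse IDs (28805 of 28842 in GENCODE M21, GRCm38), and neither the counter nor its strand setting is known from the sources used here.

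FPKM was computed here from value, gene length and column sum. Genes whose mean FPKM reached 1 (13016) entered limma 3.58.1 (variance trend, two-sided) in R 4.3.3 on log2(value + 1), which slightly understates changes of low genes; adjusted p-values are Benjamini-Hochberg over all of them, with a threshold of 0.05. The script was tested on simulated data. Single genes and ratios had exact permutation tests of the group labels (two-sided, smallest p 0.00216), and correlations 100000 permutations. edgeR 4.0.16 and DESeq2 1.42.0 were run on the recovered reads as alternatives, beside other pseudocounts, filters, scalings, weights, covariates and each library left out. For 25 genes, names turned into dates were restored through the gene ID. The rule for named genes took the 6 members, the 3 genes with the smallest p of each other list and the 5 genes most like Egr1 and Egr2; some genes it named are not reported here. The members, lists and tests were chosen with earlier results of these data known.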

Additional observations from a re-analysis of the deposited data

Results flagged for a closer look

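Egr4 in the library saline 5 stood at 2796 normalised reads, with the next saline library at 1840. The gap was 0.66 of the range of the 6 saline libraries, above Dixon's 95 percent limit for 6 values. Of 12 groups of libraries looked at (6 genes in both groups), this was the 1 so marked, and chance marks about 1 in 20. The same library had the highest contrast of short and long genes (0.36) and 536 FPKM of Ttr; their part in the Egr4 value was not tested. Without saline 5 the log2 difference of Egr4 was 0.25.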

How the results depend on the processing

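No EGR or NAB gene passed the adjusted threshold in limma, edgeR or DESeq2 under any alternative run. The count of genes passing was 0 under every alternative except DESeq2, where it was 3 (Nr4a1, Arc and Dusp1). Egr2 kept its direction in every alternative in which it was tested (0.26 to 0.36 on leaving out 1 library); a filter at a mean of 5 FPKM removes it. Egr1 kept its direction too (0.07 to 0.17 on leaving out 1 library) but was 0.0048 with the red blood cell score as a covariate. Egr3 turned to -0.019 with library weights and ranged from -0.041 to 0.13 on leaving out 1 library. With the red blood cell score as a covariate Egr4 was -0.13 and Nab2 -0.051; on leaving out 1 library they ranged from 0.02 to 0.25 and from 0.04 to 0.21. Nab1 was 0.088 with library weights, 0.0036 with the oligodendrocyte score, 0.013 with the red blood cell score, 0.0098 with edgeR after filtering and 0.0078 with DESeq2, and ranged from -0.078 to 0.081 on leaving out 1 library. On leaving out 1 library the ratios ranged from -0.17 to 0.050 (Egr3 over Egr1), -0.080 to 0.076 (Egr4 over Egr1), -0.058 to 0.096 (Nab2 over Egr1) and -0.038 to 0.27 (Nab2 over Nab1), and correlations from -0.56 to 0.17 (Egr1 with Egr3) and -0.50 to 0.24 (Egr2 with Egr3). The correlation of Egr1 with Egr3 was 0.18 with equal sums per gene length. Pairs that passed only without 1 library were Egr1 with Egr4 (0.76 without saline 1, 0.75 without saline 6), Egr4 with Nab1 (-0.80 without saline 5), Egr1 with Nab2 (0.79) and Egr3 with Egr4 (-0.79) without saline 6, and Egr1 with Egr2 (0.82 without cocaine 4). Relative to Egr1, Nr4a1 passed without saline 3 (0.48) or saline 6 (0.48) and Fos without saline 6 (0.31). The replicate numbers did not pair the libraries (correlations of same-numbered libraries from -0.40 to 0.43). With the number as a replicate block limma passed 0 genes (150 had an unadjusted p under 0.05), and Egr2 had a difference of 0.32 and an adjusted p of 1.00; Arc and Dusp1 relative to Egr1 had an adjusted exact p of 0.179, with 6 pairs. On leaving out 1 library the list medians ranged from 0.029 to 0.065 (EGR targets), -0.034 to 0.035 (upstream genes), -0.044 to 0.0085 (NuRD) and 0.28 to 0.42 (other immediate-early genes). Of the 6 genes Egr2 had the fewest reads.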
